A study of Mus musculus with 8 samples.

Results

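The genes described here are the interleukins and their receptors on a 1-colour mouse expression array, measured in liver after adenovirus with or without the long non-coding RNA LeXis. Members were taken by name: every non-control probe whose gene name in the scanner files starts with Il and a digit, leaving out 9 genes of that pattern, Il1a, Il1b, Il1rn, Il2rb, Il6, Il10, Il12b, Il15 and Il18. This gave 72 genes on 94 probes, of 34779 genes on the array. They hold 31 ligands, 36 receptor chains, 4 decoy receptors or binding proteins, and Il4i1, an enzyme named for its induction by interleukin 4.

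Total RNA came from livers of bl6 mice that were 12 weeks old and fed chow, and was taken on day 6. The mice of both groups carried an adenovirus: 4 arrays are labelled AdGFP, the control virus, and 4 AdLeXis. The treatment text of the labels names instead a control and an shRaly construct in pblockIT, so the groups rest on the treatment tag, the titles and the design text. Nothing in the labels says that each array is a separate animal, and p-values cover no more than the spread from array to array within a group, part of which may be technical. Whole liver holds hepatocytes together with several kinds of immune, endothelial and stromal cells, and the labels give no cell sorting. For each gene below, fewer cells of a type and less RNA per cell cannot be told apart.

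Interleukins are small secreted proteins by which leukocytes and tissue cells signal to each other. Most act through receptors built of a chain that recognises 1 cytokine and a second chain shared within a family. Such shared chains are the common gamma chain Il2rg, the common beta chain and Il6st for the IL-6 family. Il10rb serves part of the IL-10 family, and Il17ra the IL-17 family. The receptors of the gamma chain, IL-6 and IL-10 families signal through JAK kinases and STAT factors, and those of the IL-1 and IL-17 families through adaptor proteins towards NF-kB. In liver, hepatocytes respond to IL-6 with acute phase proteins, while resident lymphocytes and natural killer cells use IL-2, IL-12, IL-15, IL-18 and IL-21 signals.

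Levels are log2 intensity of a gene's brightest probe after scaling each array to its 75th percentile, differences are AdLeXis minus AdGFP, and a gene is called at a limma adjusted p under 0.05. A long non-coding RNA probe taken for LeXis was at 0.53 to 1.01 and not well above background on the AdGFP arrays, and at 9.90 to 10.70 on the AdLeXis arrays. This probe was identified by its position at the Abca1 locus, not by its name. AdLeXis arrays were brighter before scaling, with a 75th percentile of 381 to 448 intensity units against 220 to 297. The share of spots detected above background was 62.6% to 67.7% in AdLeXis and 58.9% to 62.5% in AdGFP, and 0 spots were saturated. All 8 arrays were on 1 slide with 1 scan time, but the first number of the position in the headers was 1 for each AdGFP array and 2 for each AdLeXis array, so position and group cannot be told apart.

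Promoter sequence is shown for 4 genes that were called lower. Of these, Il18r1, Il7r and Il21r held a motif of a cytokine-responsive factor, as did Il13ra1 and Il16, which are not shown. The other, Il18bp, had the largest difference among the called genes. The motifs searched on both strands, from 250 bases before to 50 bases after each start in RefSeq (GRCm38.p6), were TTCNNNGAA, a STAT-like motif, an NF-kB-like motif of GGGA and CC with any 4 bases between, and an interferon-response-like motif of GAAA and GAAA with any 2 bases between. The windows of different starts of 1 gene can overlap. Of the 3 listed starts of Il18r1, start 3 alone held TTCNNNGAA. Each sequence below is the 250 bases before a start, 5′ to 3′ on the gene's strand, with motif matches in capitals: Il18r1 at start 3 of its 3 listed starts (chr1:40465756-40466005, plus strand) and Il7r (chr15:9529877-9530126, minus strand) with TTCNNNGAA, Il21r (chr7:125603179-125603428, plus strand) with the NF-kB-like motif read on the opposite strand, and Il18bp (chr7:102018233-102018482, minus strand) with no match.
Il18r1: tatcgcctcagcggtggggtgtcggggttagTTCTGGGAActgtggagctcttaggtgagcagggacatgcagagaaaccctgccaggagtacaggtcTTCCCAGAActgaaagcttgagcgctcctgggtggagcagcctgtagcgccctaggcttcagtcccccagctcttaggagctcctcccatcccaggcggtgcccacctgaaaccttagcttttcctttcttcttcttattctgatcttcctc
Il7r: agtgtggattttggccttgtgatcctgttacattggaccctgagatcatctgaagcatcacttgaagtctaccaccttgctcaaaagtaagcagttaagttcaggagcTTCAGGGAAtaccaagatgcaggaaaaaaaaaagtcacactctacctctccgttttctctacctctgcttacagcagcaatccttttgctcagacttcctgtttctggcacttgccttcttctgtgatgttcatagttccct
Il21r: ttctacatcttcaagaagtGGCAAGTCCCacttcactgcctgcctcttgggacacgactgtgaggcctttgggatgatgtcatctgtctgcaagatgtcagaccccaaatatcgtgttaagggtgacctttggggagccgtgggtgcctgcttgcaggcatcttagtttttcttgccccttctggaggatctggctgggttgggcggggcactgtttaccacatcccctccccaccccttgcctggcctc
Il18bp: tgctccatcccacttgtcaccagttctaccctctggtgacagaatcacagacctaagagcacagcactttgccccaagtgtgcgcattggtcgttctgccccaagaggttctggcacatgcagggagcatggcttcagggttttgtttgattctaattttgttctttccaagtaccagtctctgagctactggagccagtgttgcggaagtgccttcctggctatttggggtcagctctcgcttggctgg

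Of the 72 genes, 58 had at least 1 promoter in the table, 71 promoters in all, and 10 of these genes were called lower. Il12rb1, Il10ra and Il17ra had no entry. Among those 10, TTCNNNGAA lay in 2 (Il18r1 and Il7r), the NF-kB-like motif in 3 (Il21r, Il13ra1 and Il16) and the interferon-response-like motif in 0. Over 32851 promoters of the same length the shares were 8.30%, 20.7% and 3.44%. Those shares count promoters, not genes. Counted by promoter, TTCNNNGAA was in 13.3% of 15 promoters of the genes called lower and in 20.7% of 29 promoters of the tested genes that were not called. In the same order, the NF-kB-like motif was in 20% and 34.5%, and the interferon-response-like motif in 0% and 10.3%. The match is a description of letters and no measure of binding.

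Detection divided the family by role. Of the 72 genes, 41 had a probe well above background on all 8 arrays and 16 on no array; over all genes on the array, 60.9% were detected on all 8 and 20.0% on none. The number detected was 44 to 47 on the AdGFP arrays and 43 to 50 on the AdLeXis arrays, so the groups overlapped in this count. Receptor chains were mostly measurable, 29 of 36 passing the filter of at least 4 arrays, whereas 12 of 31 ligands passed. Il2, Il9, Il13 and Il21 of the gamma chain and IL-13 group failed it, as did Il3 and Il5, Il12a, Il23a and Il31, Il17a, Il17b, Il17c, Il17f and Il25, and 5 of 6 IL-1 family ligands (Il1f5, Il1f6, Il1f8, Il1f9 and Il1f10). Receptor genes below the filter were Il1rapl1, Il1rapl2, Il1rl1, Il1rl2, Il9r, Il23r and Il20ra, with the soluble decoy Il22ra2. These 27 genes were detected on 0 to 3 arrays and have no level given here. Detection in 1 group only was seen on 2 arrays at most: Il1rl1, the receptor chain for IL-33, on 2 AdGFP arrays, and Il1rapl1 and Il17b on 2 AdLeXis arrays each.

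**Figure D1:**
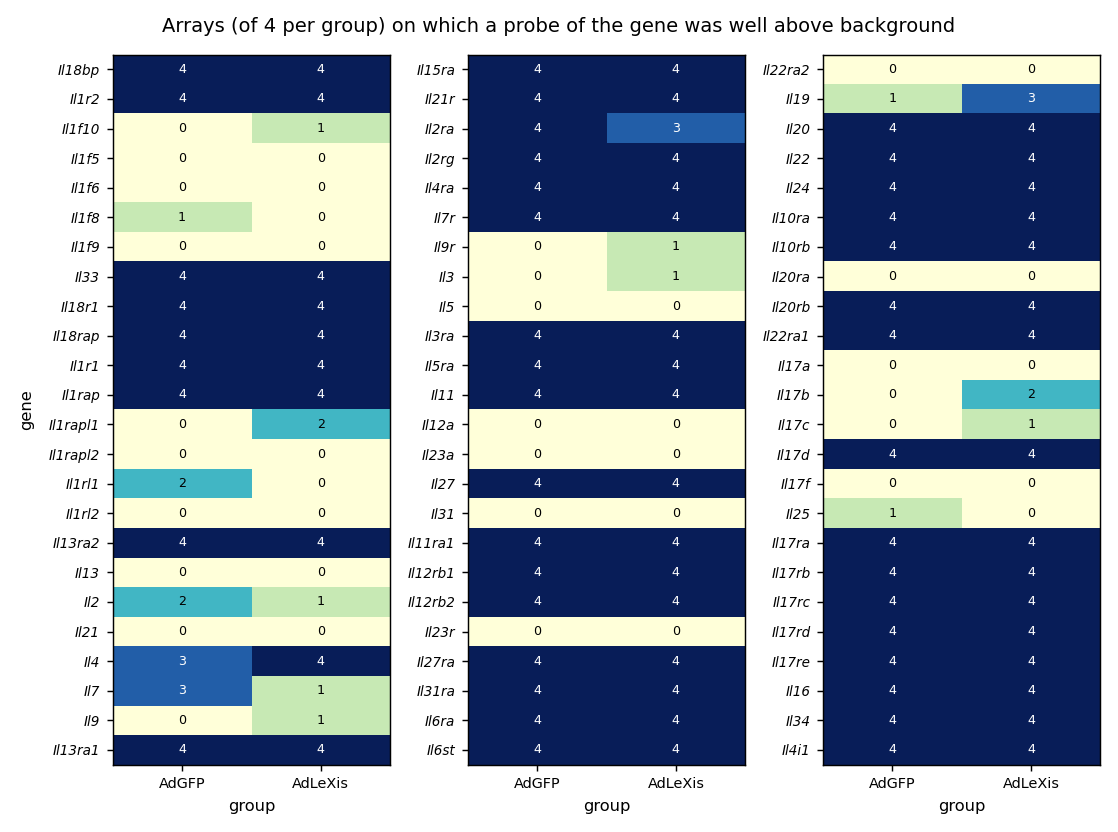
Number of arrays, of 4 in each group, on which at least 1 probe of the gene was well above background, for all 72 genes in order of family and role (rows) and by group (columns). The figure shows 41 genes at 4 and 4, 16 at 0 and 0, and the rest between.

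Among the 45 genes that could be tested, Il18bp, Il2rg, Il18r1 and Il21r had the largest called decreases in AdLeXis livers. In all, 13 genes were called lower, 28.9% of those tested, where 8.8% of all 23893 genes were. 1 gene, Il33, was called higher, 2.22% of those tested, where 8.74% of all genes were (17.5% in either direction). The 13 were Il18bp, Il2rg, Il18r1, Il21r, Il12rb1, Il15ra, Il10ra, Il13ra1, Il17ra, Il4ra, Il16, Il7r and Il6st, 11 of them receptor chains (7 without AdLeXis replicate 4), 1 a binding protein and 1 a ligand. The median difference over the tested members was -0.22, against -0.0022 over all genes tested. 33 differences were below 0 and 12 above 0, and at an unadjusted p under 0.05 the counts were 19 lower and 3 higher.

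All 4 AdLeXis arrays lay below all 4 AdGFP arrays for 14 tested members (31.1%, against 12.3% of all genes), and above them for 2 (4.44%, against 12.4%), where 24.7% of all genes were apart in either direction. The 14 genes called either way were each well above background on all 8 arrays by the probe used. With normexp background correction and quantile scaling the split was 13 lower and 4 higher (10.8% of all genes in each direction), the higher genes being Il6ra, Il11ra1, Il10rb and Il4i1. With median scaling it was 16 lower and 0 higher, against 11.2% and 4.82% of all genes. Without the filter on dim probes, 11 of 72 members were lower and 0 higher, against 4.31% and 4.02% of all 34779 genes. Il7r, Il13ra1, Il15ra and Il33 were not among the calls. That fit also takes in genes at background, and its 11 include a member outside the 13 of the main fit. With the filter at all 8 arrays, 13 of 41 members were lower and 1 higher, against 11.4% and 10.2% of 21098 genes.

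**Figure D2:**
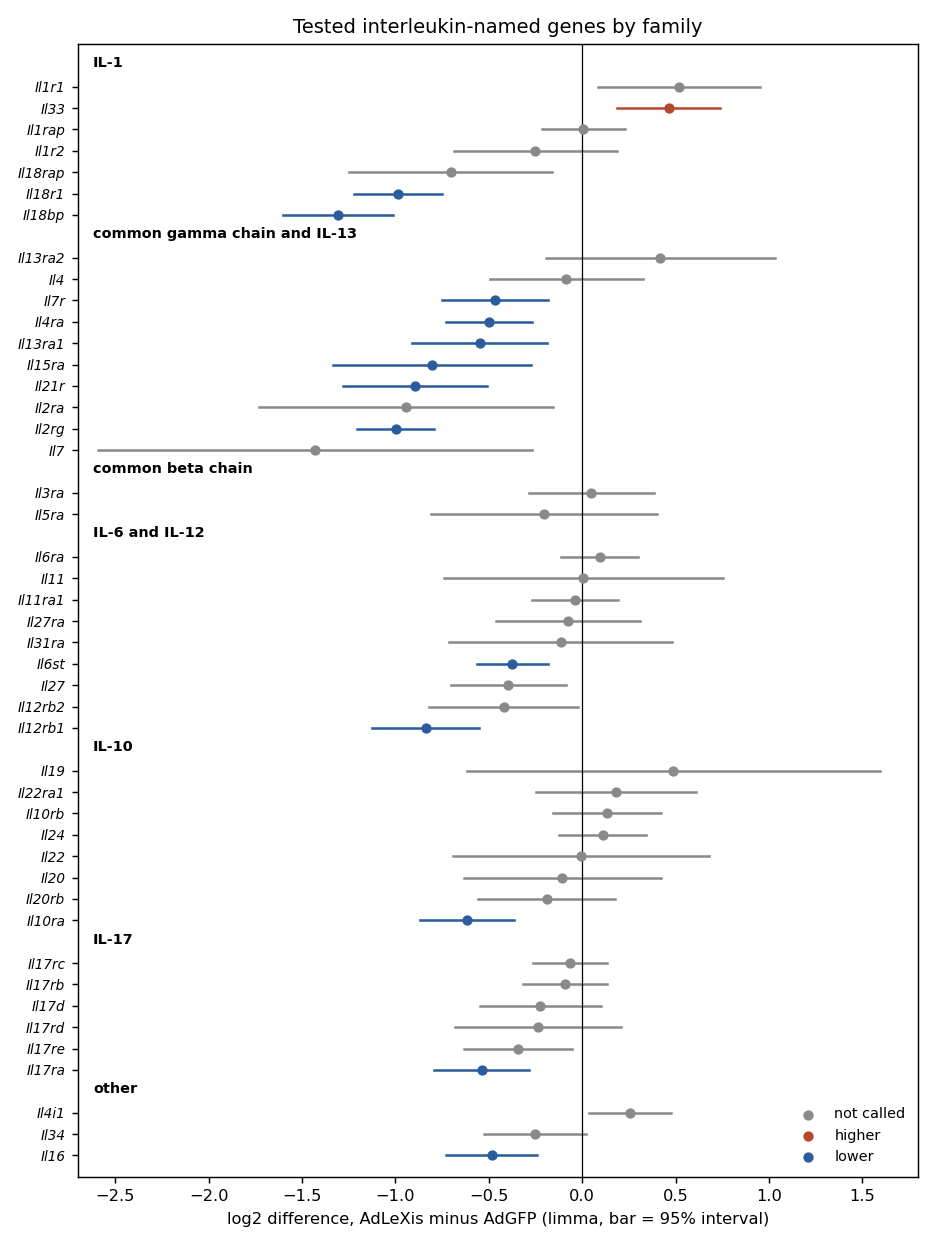
Log2 difference of each of the 45 tested genes (x axis, AdLeXis minus AdGFP, limma estimate with its 95% interval as a bar), grouped by cytokine family (y axis). Blue marks genes called lower, red the gene called higher and grey the genes not called; the blue points run from -1.31 for Il18bp to -0.37 for Il6st.

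Among the secreted inhibitors and receptors of the IL-1 family, Il18bp and Il18r1 were called lower. IL-18, itself outside the set, drives interferon-gamma production, and Il18bp is the secreted protein that binds it and keeps it from its receptor. The level of Il18bp was 13.04, 12.87, 12.77 and 12.58 on the 4 AdGFP arrays and 11.52, 11.73, 11.30 and 11.47 on the AdLeXis arrays. The groups were separated by a gap wider than the range within either. Il18bp fell by 1.31 (SE 0.13), from 12.81 ± 0.19 to 11.51 ± 0.18 (SD, n = 4 each), which is 2.48-fold lower (limma adjusted p = 9.54e-04).

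The IL-18 receptor has a ligand-binding chain, Il18r1, and an accessory chain, Il18rap. Il18r1 stood at 6.87, 6.93, 6.67 and 6.85 in AdGFP and at 5.99, 5.93, 5.64 and 5.83 in AdLeXis. Every AdLeXis value was below every AdGFP value, and Il18r1 fell by 0.99 (SE 0.10, limma adjusted p = 0.00116). The difference was -0.60 with normexp and was still called (limma adjusted p = 0.00131). Il18rap changed in the same direction by -0.70, but its groups overlapped and it was not called (limma adjusted p = 0.0757). Il18rap was called without AdLeXis replicate 3 (-0.94, limma adjusted p = 0.0118) and with median, quantile or cyclic loess scaling or normexp. Il18, the cytokine, was at 10.77 ± 0.05 in AdGFP and 10.93 ± 0.11 in AdLeXis (SD, n = 4 each), not called (limma adjusted p = 0.208).

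Il33, an alarmin held in the nucleus of endothelial and stromal cells until damage releases it, was the gene called higher. Its level was 5.88, 5.60, 5.98 and 5.89 in AdGFP and 6.47, 6.43, 6.13 and 6.17 in AdLeXis. The lowest AdLeXis array lay above the highest AdGFP array. Il33 rose by 0.46 (SE 0.12), or 1.38-fold (limma adjusted p = 0.0329). Leaving out AdGFP replicate 1 (0.48), 2 (0.38) or 4 (0.48) ended the call, as did AdLeXis replicate 1 (0.41), 2 (0.42) or 4 (0.51), with limma adjusted p from 0.0532 to 0.0841. It was also lost with normexp (0.13, limma adjusted p = 0.264) and with median scaling (0.38, limma adjusted p = 0.0685).

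The other chains of the IL-1 family were not called. Il1r1, the signalling receptor for IL-1, had one of the 10 highest probe signals of the set, at 10.43, 10.66, 10.69 and 10.93 in AdGFP and 10.72, 11.11, 11.36 and 11.58 in AdLeXis. Its groups overlapped, and the difference was 0.52 (limma adjusted p = 0.0985). Without AdLeXis replicate 1 it was called, at 0.67 (limma adjusted p = 0.0267), and with normexp it was 0.31. Il1rap, the accessory chain that Il1r1 and Il1rl1 share, was at 12.22 ± 0.10 and 12.23 ± 0.14 (SD, n = 4 each), a difference of 0.01 with a 95% interval from -0.21 to 0.23. The decoy receptor Il1r2 changed by -0.25 and was not called (limma adjusted p = 0.41).

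A run of 6 receptor and decoy genes of the IL-1 family lies on mouse chromosome 1, while Il1rap is on chromosome 16. The probes in mm9 start at 40180014 for Il1r2, 40372667 for Il1r1, 40422123 for Il1rl2, 40522187 for Il1rl1, 40557541 for Il18r1 and 40605729 for Il18rap. Within this run the differences were -0.25 for Il1r2, 0.52 for Il1r1, -0.99 for Il18r1 and -0.70 for Il18rap, while Il1rl2 and Il1rl1 were below the filter. Il18r1 alone of the 4 tested genes was called, where 17.5% of all genes were called in either direction.

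In the group of common gamma chain and IL-13 receptors, 6 of 7 tested chains were called lower (Il2rg, Il21r, Il15ra, Il4ra, Il13ra1 and Il7r), where 8.8% of all genes were, and Il2ra was not called. The count fell to 3 of 7 when AdGFP replicate 1 or AdGFP replicate 3 was left out, and likewise for AdLeXis replicate 1 or AdLeXis replicate 4. Il2rg is the chain that the receptors for IL-2, IL-4, IL-7, IL-9, IL-15 and IL-21 share. It was measured at 9.73, 9.54, 9.46 and 9.56 in AdGFP and at 8.66, 8.57, 8.62 and 8.45 in AdLeXis. The arrays within a group were close together, and Il2rg fell by 1.0 (SE 0.09), 2.00-fold lower, from 9.57 ± 0.12 to 8.58 ± 0.09 (SD, n = 4 each, limma adjusted p = 6.27e-04).

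Il21r, the private receptor chain for IL-21 on lymphocytes, read 6.89, 6.74, 6.56 and 6.47 in AdGFP and 5.98, 6.02, 5.33 and 5.75 in AdLeXis. No array of one group reached the other. The fall was 0.90 on the log2 scale (a difference of -0.90, SE 0.17, limma adjusted p = 0.01), and -0.54 with normexp, still called (limma adjusted p = 0.00222).

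Il15ra binds IL-15 and presents it to natural killer and T cells. AdGFP arrays were at 13.94, 13.89, 14.28 and 13.83 and AdLeXis arrays at 12.79, 13.59, 13.62 and 12.73. AdLeXis replicates 1 and 4 lay well below the other arrays, and replicates 2 and 3 just under the AdGFP range. The difference was -0.81 (SE 0.23, limma adjusted p = 0.0463), while the other kept probe of the gene gave -0.20. The mean of both probes was not called (-0.50, limma adjusted p = 0.052). Leaving out any one AdGFP array (-0.82, -0.84, -0.71 and -0.86 in order of replicate) ended the call, and so did leaving out AdLeXis replicate 1 (-0.68) or 4 (-0.65), with limma adjusted p from 0.0734 to 0.107.

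Il4ra recognises IL-4 and, paired with Il13ra1, also IL-13. Il4ra was at 9.13, 9.03, 8.91 and 9.27 in AdGFP and 8.53, 8.57, 8.51 and 8.72 in AdLeXis, a difference of -0.50 (SE 0.10, limma adjusted p = 0.0128). The groups did not overlap, and its other kept probe gave -0.74. With normexp the difference was -0.13 and was not called (limma adjusted p = 0.233).

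Il13ra1 was at 7.41, 6.97, 7.52 and 7.25 in AdGFP and 6.61, 6.99, 6.89 and 6.46 in AdLeXis, a difference of -0.55 (SE 0.16, limma adjusted p = 0.0462). It is the called gene whose groups overlapped, AdGFP replicate 2 lying between AdLeXis replicates 2 and 3. Leaving out AdGFP replicate 1 (-0.51), 3 (-0.47) or 4 (-0.56) ended the call, and so did leaving out AdLeXis replicate 1 (-0.51), 3 (-0.60) or 4 (-0.46), with limma adjusted p from 0.0633 to 0.113. Il13ra2, a decoy for IL-13, was at 4.18 ± 0.53 and 4.6 ± 0.31 (SD, n = 4 each) and not called.

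Il7r, which lymphocytes need for survival signals from IL-7, read 5.33, 5.15, 5.48 and 5.08 in AdGFP and 4.82, 4.54, 4.92 and 4.91 in AdLeXis. The groups did not overlap, with a difference of -0.47 (SE 0.12, limma adjusted p = 0.0359). The call was lost on leaving out any array but AdGFP replicate 4: the difference was -0.44, -0.50 and -0.39 without AdGFP replicates 1, 2 and 3, and -0.47, -0.38, -0.51 and -0.50 without AdLeXis replicates 1 to 4, with limma adjusted p from 0.0512 to 0.0866. With normexp it was -0.27 and called (limma adjusted p = 0.016).

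Il2ra makes the IL-2 receptor high affinity and marks regulatory and activated T cells. It was at 4.38, 4.10, 4.69 and 4.21 in AdGFP and 3.65, 3.62, 4.03 and 2.31 in AdLeXis, and was well above background on 3 of the 4 AdLeXis arrays. The groups did not overlap, but AdLeXis replicate 4 stood well below the other arrays, and the difference of -0.94 was not called (SE 0.34, limma adjusted p = 0.0959). Without that array it was -0.58 (limma adjusted p = 0.0758), and with normexp -0.15.

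The 2 ligands of the gamma chain group that passed the filter were dim. Il4 changed by -0.09 and was not called. Il7, mentioned because it had the largest difference of any tested member after its values were seen, was at 3.77, 3.43, 3.43 and 2.92 in AdGFP and 3.18, 2.65, 1.14 and 0.85 in AdLeXis. Its groups overlapped and it was detected on 3 AdGFP and 1 AdLeXis arrays. The difference of -1.43 had a 95% interval from -2.59 to -0.27 and was not called (limma adjusted p = 0.0885).

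In the IL-6 and IL-12 family, 2 of 7 tested receptor chains, Il12rb1 and Il6st, were called lower, where 8.8% of all genes were. The other 5 tested receptor chains were not called. Il12rb1 is the chain that the IL-12 and IL-23 receptors share, on T and natural killer cells. It was at 9.62, 9.37, 9.30 and 9.29 in AdGFP and at 8.64, 8.55, 8.77 and 8.29 in AdLeXis. The groups were well apart, and Il12rb1 fell by 0.84 (SE 0.13, limma adjusted p = 0.00413). Its other kept probe gave -0.38 and did not pass 0.05 in a fit of all probes (limma adjusted p = 0.193). With normexp the difference was -0.40 (limma adjusted p = 0.0497). Its partner Il12rb2 changed by -0.42 with overlapping groups (limma adjusted p = 0.137).

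Il6st transmits the signal of IL-6, IL-11 and IL-27. The gene was at 11.54, 11.61, 11.48 and 11.46 in AdGFP and 11.14, 11.27, 11.15 and 11.03 in AdLeXis, and fell by 0.37 (SE 0.08, limma adjusted p = 0.0183). This was the smallest difference of the 13 genes called lower, with groups that did not overlap. The call was lost without AdGFP replicate 2 (-0.34, limma adjusted p = 0.0534) or AdLeXis replicate 4 (-0.33, limma adjusted p = 0.0541), and the difference was -0.57 with normexp.

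Il6ra, which hepatocytes use to respond to IL-6, gave the highest probe signal of the set, at 14.04, 14.03, 14.09 and 13.93 in AdGFP and 14.15, 14.12, 14.26 and 13.94 in AdLeXis. The groups overlapped, with a difference of 0.09 and a 95% interval from -0.11 to 0.30 (limma adjusted p = 0.53), and a called rise of 0.38 with normexp (limma adjusted p = 0.00635). Il11ra1, the receptor chain for IL-11, was at 12.80 ± 0.17 and 12.76 ± 0.06 (SD, n = 4 each), a difference of -0.04 with a 95% interval from -0.27 to 0.19. That sign turned with normexp (0.38, limma adjusted p = 0.0394) and without AdGFP replicate 3 (0.032).

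Il27 encodes one subunit of IL-27, made by macrophages and dendritic cells. It was at 8.30, 8.30, 8.40 and 8.55 in AdGFP and 8.15, 7.85, 8.26 and 7.72 in AdLeXis. All AdLeXis arrays were below AdGFP, and the difference of -0.40 was not called (SE 0.13, limma adjusted p = 0.0785). It was called under 4 alternatives: without AdLeXis replicate 3 (-0.48, limma adjusted p = 0.0473), with median scaling (-0.48, limma adjusted p = 0.026), with normexp (-0.43, limma adjusted p = 0.0224) and with trend (-0.40, limma adjusted p = 0.0468). The receptor chains Il27ra and Il31ra and the ligand Il11 lay between -0.12 and 0.01 and were not called.

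In the IL-10 family, 1 of 8 tested genes was called lower, a count near the 8.8% of all genes. That gene was Il10ra, the receptor chain that marks leukocytes. Il10rb, the chain found on most cells, was not called. Il10ra, which binds IL-10, was at 10.02, 10.06, 9.65 and 10.01 in AdGFP and at 9.45, 9.28, 9.24 and 9.30 in AdLeXis. AdGFP replicate 3 was below the other AdGFP arrays but above each AdLeXis array. Il10ra fell by 0.62 (SE 0.11, limma adjusted p = 0.00839). Il10rb, its widely expressed partner, was at 9.17 ± 0.21 and 9.31 ± 0.15 (SD, n = 4 each), a difference of 0.13 with a 95% interval from -0.16 to 0.42, and 0.46 and called with normexp. The other 6 tested genes of the family, the ligands Il19, Il20, Il22 and Il24 and the receptors Il20rb and Il22ra1, were between -0.19 and 0.49 and not called. Whether the differences of Il10ra and Il10rb differ from each other was not tested.

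In the IL-17 family, 1 of 6 tested genes was called (2 without AdGFP replicate 2). Over all genes 17.5% were called in either direction, so this count was near that share. Il17ra, the chain that the IL-17 receptors share, was at 7.62, 7.77, 7.58 and 7.72 in AdGFP and 7.18, 7.24, 7.28 and 6.85 in AdLeXis, without overlap. The difference was -0.54 (SE 0.11, limma adjusted p = 0.0143), and -0.17 and not called with normexp (limma adjusted p = 0.249). Its partner chain Il17rc, also present on epithelium, was at 13.15 ± 0.13 and 13.08 ± 0.05 (SD, n = 4 each), a difference of -0.07 with a 95% interval from -0.26 to 0.13. Il17rb, the chain for IL-25, was at 9.38 ± 0.14 and 9.28 ± 0.11 (SD, n = 4 each) and not called. Il17re and Il17rd changed by -0.35 and -0.24 and were not called, and the 2 kept probes of the ligand Il17d disagreed in sign, at -0.22 and 0.31.

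Of the common beta chain receptors, neither Il3ra nor Il5ra was called. Il3ra, a chain that binds IL-3, was at 11.03 ± 0.14 and 11.08 ± 0.28 (SD, n = 4 each). Its difference of 0.05 turned to -0.16 with normexp, -0.033 with median scaling and -0.058 without AdLeXis replicate 4. Il5ra changed by -0.21.

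Outside these families, Il16, a chemoattractant that binds CD4, was lower. Il16 read 8.22, 8.11, 7.99 and 8.18 in AdGFP and 7.67, 7.53, 7.48 and 7.87 in AdLeXis, without overlap, and fell by 0.48 (SE 0.11, limma adjusted p = 0.0179). The difference was -0.067 and not called with normexp, and the call was lost without AdGFP replicate 1 (-0.45) or AdLeXis replicate 2 (-0.45), with a limma adjusted p of 0.0505 for each. Il34, a ligand of the macrophage receptor Csf1r, was at 9.06 ± 0.17 and 8.81 ± 0.17 (SD, n = 4 each) and not called. Il4i1, an amino acid oxidase of antigen-presenting cells, was at 8.31, 8.43, 8.11 and 8.42 in AdGFP and 8.58, 8.50, 8.55 and 8.67 in AdLeXis. It lay above AdGFP on all 4 AdLeXis arrays, with a difference of 0.25 that was not called (SE 0.10, limma adjusted p = 0.106), and 0.41 and called with normexp (limma adjusted p = 0.00706).

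**Figure D3:**
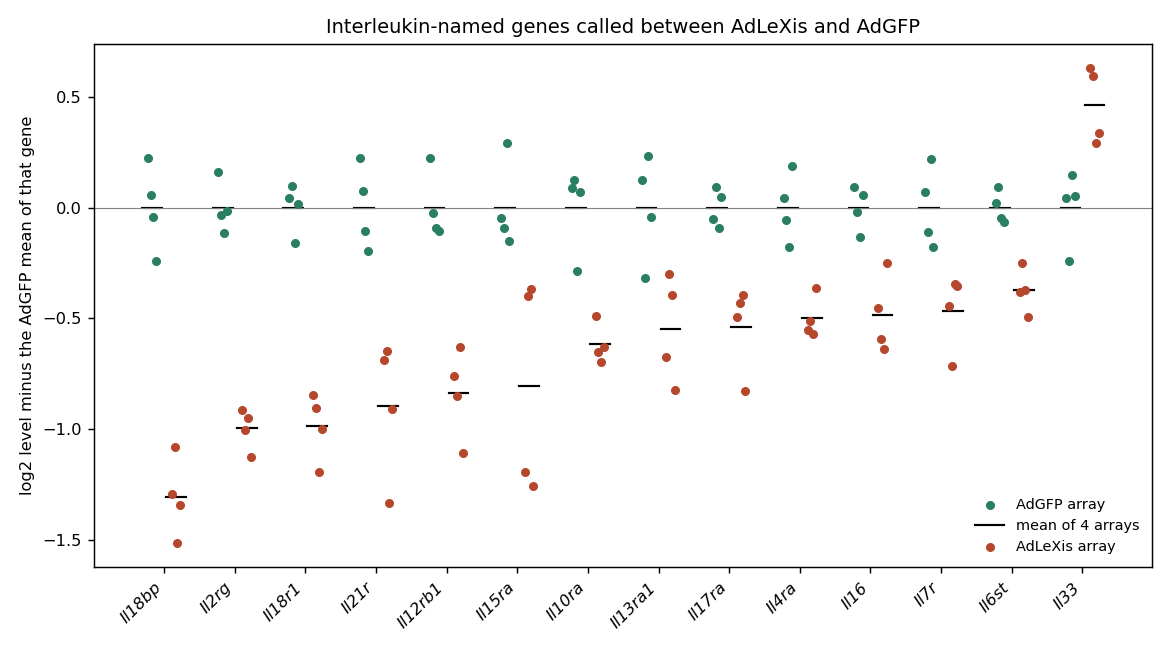
Level on each array (y axis, log2 units, as the difference from the AdGFP mean of that gene) for the 14 called genes (x axis); green points are the 4 AdGFP arrays, red points the 4 AdLeXis arrays and bars the group means. The AdLeXis means of Il18bp, Il2rg and Il18r1 lie furthest below the AdGFP means. The AdLeXis arrays of Il15ra split into a high and a low pair, and those of Il33 lie above the AdGFP arrays.

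Il18bp, Il2rg, Il18r1, Il21r, Il12rb1 and Il10ra, 6 of the 13, were called lower under each of the 22 alternatives run. With quantile or cyclic loess scaling of the processed signal the 14 genes kept their calls. With normexp, which changes the background correction as well, Il4ra, Il17ra, Il16 and Il33 were not called. Il33 was also not called with median scaling or the percentile over detected probes.

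**Figure D4:**
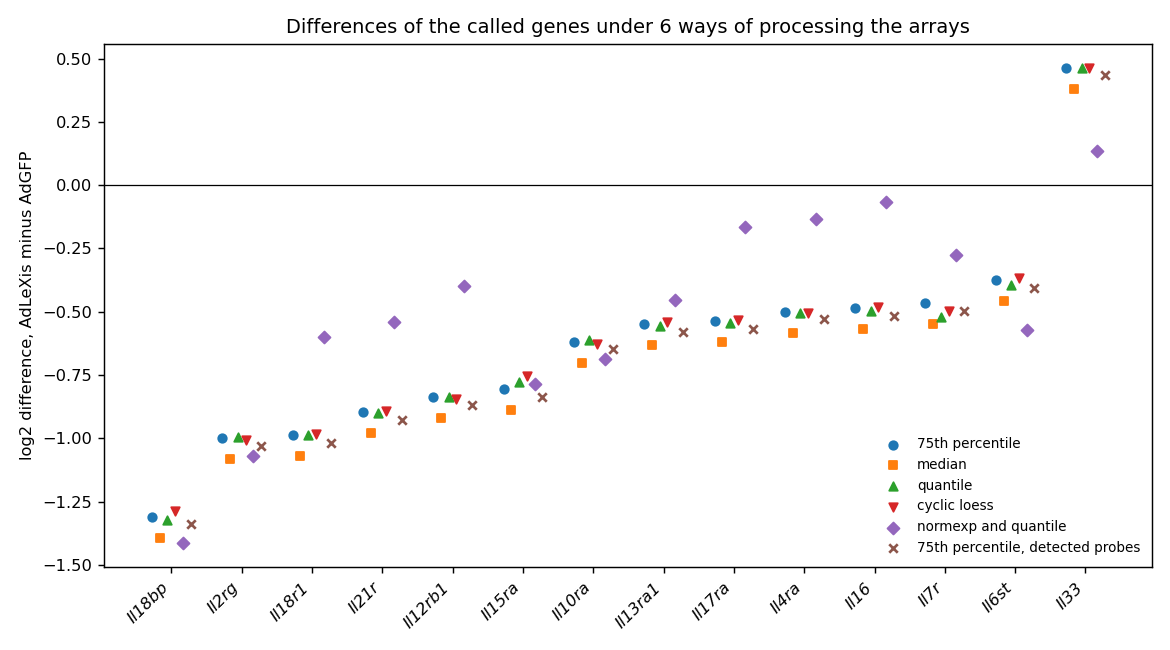
Log2 difference, AdLeXis minus AdGFP (y axis), of the 14 called genes (x axis) under 6 ways of correcting and scaling the arrays, each with its own symbol. Normexp with quantile scaling (purple) gives its values nearest 0 for Il16 (-0.067), Il4ra (-0.13), Il33 (0.13) and Il17ra (-0.17), while the other 5 settings lie close together for each gene.

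Genes that act with the interleukins were read from lists, whose counts stand against 8.8% of all genes lower and 8.74% higher and a median of -0.0022. Of 16 tested partner cytokines and receptors with no interleukin name, 2 were lower and 0 higher: Ebi3, the subunit that pairs with Il27, changed by -0.67 (limma adjusted p = 0.0156) and Csf2rb2, a beta chain, by -0.56 (limma adjusted p = 0.0196). With 2 of 16 this list was near the share of all genes. Leaving out AdGFP replicate 3 gave 4 lower, and leaving out AdLeXis replicate 2 gave 1. Of the 8 tested interleukin genes left out by the naming rule, Il2rb, the beta chain of the IL-2 and IL-15 receptors, and Il1b were lower, by -1.21 and -0.89. The inflammasome and processing list, whose proteins take part in making and releasing active IL-1 beta and IL-18, had 4 of 8 lower and 0 higher, with a median of -0.66. These were Casp4 (-0.83), Nlrp1b (-1.0), Casp1 (-0.70) and Pycard (-0.47), with limma adjusted p from 0.00189 to 0.0331.

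Genes downstream of the receptors were called in both directions, and their counts stand against the same 8.8% of all genes lower and 8.74% higher. Of 11 JAK kinases and STAT factors, Stat4, which IL-12 activates, changed by -1.10 (limma adjusted p = 0.00131) and Tyk2 by -0.31 (limma adjusted p = 0.0376), while Stat5a rose by 0.65 (limma adjusted p = 0.0118). Leaving out any one array other than AdGFP replicate 4 gave 1 lower gene, and leaving out AdLeXis replicate 1 gave 2 higher. Of 15 SOCS proteins and other brakes, only some of which cytokine signals themselves induce, Socs1 (-1.24, limma adjusted p = 0.00634) and Socs3 (-0.97, limma adjusted p = 0.00908) were lower and 0 higher. Of 15 IL-1 and IL-17 receptor adaptors, Irak3 (-0.64), Myd88 (-0.47) and Irak2 (-0.40) were lower and Tab1 (0.43) higher, with limma adjusted p from 0.0067 to 0.0288. The Tab1 call makes that higher count 1, which was 0 without AdLeXis replicate 2 or 4 and 2 without AdGFP replicate 4. The medians of these 3 lists were -0.05, -0.03 and -0.05.

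Cell type markers were read from lists in the same way, against the same shares of all genes. Summed levels given for a list are the log2 of its summed intensity, so they follow its brightest genes. By AdGFP mean these were Siglech (14.85) for dendritic cells, Csf3r (14.73) for neutrophils and Dcn (14.82) for stellate cells. T and natural killer cell markers were called lower in 20 of 23 and higher in 0, with a median of -1.04. Their summed level was 15.03 to 15.22 on AdGFP arrays and 14.11 to 14.37 on AdLeXis arrays. Among them Cxcr6 changed by -1.08 and Tbx21 by -1.07, while Zap70 (-0.49), Klrb1c (-0.05) and Ncr1 (0.73), the last 2 natural killer cell markers, were not called; these 3 are named after their values were seen. Monocyte markers were lower in 5 of 5 (median -0.62, summed level 13.71 to 13.95 against 13.13 to 13.36), Kupffer cell and macrophage markers in 6 of 13 (median -0.48, 17.13 to 17.46 against 16.73 to 17.05) and dendritic cell markers in 3 of 7 (median -0.51, 14.94 to 15.03 against 14.75 to 15.00). The other 7 Kupffer cell markers, with Vsig4 at 0.50 and Clec4f at 0.10 named likewise, and 4 dendritic cell markers were not called. The Kupffer cell count was 10 with an intensity trend in the variance. No marker list had a gene called higher (0 in each), save 1 T and natural killer cell marker without AdGFP replicate 3 and 1 Kupffer cell marker without AdGFP replicate 4, with trend or with normexp; normexp also gave 1 in the dendritic, endothelial and hepatocyte lists.

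B cell markers were lower in 1 of 8 (median -0.15, summed level 9.44 to 9.59 against 8.96 to 9.62), neutrophil markers in 0 of 7 (median -0.07, 14.11 to 15.17 against 14.76 to 15.23) and endothelial markers in 0 of 10 (median 0.03, 14.22 to 14.42 against 14.32 to 14.43). Stellate cell markers were lower in 3 of 10 (median -0.36, 14.89 to 15.38 against 14.88 to 15.06), and in 1 when AdGFP replicate 1 or any of AdLeXis replicates 2 to 4 was left out. Bile duct markers were lower in 1 of 6 and mast cell and basophil markers in 1 of 3, with Cpa3, Mcpt8, Fcer1a, Ms4a2 and Tpsab1 below the filter. The bile duct call was lost without AdGFP replicate 2, 3 or 4 and without AdLeXis replicate 1, 2 or 3, and the mast cell call without any one AdGFP array and without AdLeXis replicate 2 or 4. Hepatocyte markers were lower in 8 of 12 (median -0.51, 21.53 to 21.61 against 20.94 to 21.20), but in 1 with quantile scaling, where the median was -0.03, and in 2 with normexp (median -0.12). The part of cell numbers, and of the difference in brightness between the groups, in the interleukin receptor result was not tested.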

How the data were processed

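The values used are linear spot intensity as deposited, from Agilent Feature Extraction, version 11.5.1.11 per the submitters' processing notes. The file headers give version 11.5.1.1 for the grid placement. The authors' processing, per the file headers, subtracted background within each array and did no scaling across arrays; probe positions refer to mm9. The deposited value table holds the same intensity (largest relative difference 0).

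The members and the gene lists were chosen with earlier results of these data known. The log2 processed signal of 59305 non-control spots was centred on each array's 75th percentile, without the 127 to 256 outlier spots of each array, and averaged into 55681 probes. The filter asked for 4 or more arrays with the probe well above background, and 2 or more measured arrays in both groups (34428 probes). The kept probe of highest mean stood for its gene. Names were updated through RefSeq accessions (27656 probes) or symbols (3722) of GRCm38.p6, and 24303 probes kept the name in the file. Groups of 4 arrays were compared with limma 3.58.1 in R 4.3.3, two-sided, with Benjamini-Hochberg adjustment over 23893 genes at 0.05; the fit was tested on simulated data. The number of arrays limits the precision. Intervals are 95%.

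Genes described one by one are the called members, uncalled members whose groups did not overlap and the 10 of highest probe signal, and from each list up to 4 genes of smallest p. Alternatives were median, quantile and cyclic loess scaling, a percentile over detected probes, normexp (offset 50) with quantile scaling, 2 other filters on dim probes, the mean of a gene's probes, eBayes with trend or robust, array weights, outlier spots kept, the value table, the replicate block and leaving out each array.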

Additional observations from a re-analysis of the deposited data

Results flagged for a closer look

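Il10ra in AdGFP replicate 3, at 9.65, stood apart from the other 3 arrays of its group, which ran from 10.01 to 10.06. It was the 1 case among 46 groups of 4 arrays examined for the described genes, where chance gives about 5% of groups. Il10ra was called lower with that array left out as well.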

How the results depend on the processing

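The count of members called lower stayed within 1.5 times the main count of 13 under all 22 alternatives, from 9 to 16. Members called higher numbered 1, and 0 with median scaling, the percentile over detected probes or no filter, 4 with normexp, and 2 with trend or array weights; leaving out each array gave 0 to 1. Genes called over the whole array were 2088 higher and 2103 lower; median scaling gave 1151 higher, and leaving out each array gave 1247 to 2077 higher and 1274 to 2030 lower. Of the 23 members described one by one, 3 uncalled genes near 0 turned sign: Il1rap (-0.077 with median scaling, -0.024 with the percentile over detected probes, and with 1 array left out from -0.052 to 0.060, below 0 without AdGFP replicate 1 (-0.041) or AdLeXis replicate 3), Il3ra (-0.033 with median scaling, -0.161 with normexp, and with 1 array left out from -0.058, without AdLeXis replicate 4, to 0.128) and Il11ra1 (0.378 with normexp and with 1 array left out from -0.108 to 0.032, above 0 without AdGFP replicate 3). Median scaling and the percentile over detected probes lower all differences alike (all-gene medians -0.085 and -0.033, against -0.0022), which turns differences this small; the cause of the other turns was not tested. Pairing of the arrays by the replicate numbers of the titles was not clear. Deviations of same-numbered arrays correlated at 0.013, 0.065, 0.117 and 0.0012, and 3 of 8 arrays correlated best with their own number. With 4 arrays in a group this check cannot exclude pairing. With the replicate block, 12 members were lower and 1 higher, and 1626 and 1517 of all genes; Il13ra1 and Il33 were not called and Il1r1 was. Trend ended the call of Il7r, and array weights those of Il13ra1 and Il15ra; both added Il1r1, and trend added Il27. Dim probes, such as those of Il7 and Il2ra, have signals near background, which limits their differences.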
